A study of Mus musculus with 6 samples.

Results

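The genes described here are Pax2, Pax8 and 4 genes whose proteins work with them on chromatin, Paxip1, Kmt2c, Kmt2d and Tle4. These 6 genes were chosen by name and role, with no threshold on their values, but with earlier results of these data known. Each was read from the transcript cluster with 1 gene symbol and the highest mean on Affymetrix Mouse Gene 2.1 ST arrays. They are 6 of 22180 genes tested. RNA came from bisected adult mouse kidneys, with 1 array per sample and 6 arrays in all. The 3 arrays labelled knockout, replicates 1, 3 and 5, are of mice homozygous for floxed alleles of both Pax genes that also carry a Rosa26CreER driver, a tamoxifen-activated Cre recombinase made from a locus that is active in most cell types, so that the deletion is not limited to tubule cells by design. The 3 controls, replicates 2, 4 and 6, lacked Cre. Cre thus went with the group label, so its own effect and that of the Pax deletion cannot be told apart here. The labels do not state whether the controls carry the floxed alleles in full. Both groups received tamoxifen at 50 mg/kg, 3 injections from 8 weeks of age and 3 more from 10 weeks, and were sampled 14 days after the last dose. Each group holds 2 females and 1 male (knockout 1 and control 4). Whether every array is of its own animal is not stated, so a p-value here reflects the scatter of these samples, which may be technical.

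Pax2 and Pax8 are paired-box transcription factors that specify the nephric lineage in the embryo and stay on in tubule epithelium of the adult kidney. A DNA-bound Pax2 protein can recruit PTIP, the product of Paxip1, which brings in histone methyltransferases of the KMT2C and KMT2D type that mark active promoters and enhancers by methylating lysine 4 of histone H3. The Groucho protein TLE4 binds Pax2 as well, and shifts it from activation to repression together with Polycomb and arginine methyltransferase activity. The comparison asks how the messages of the targeted genes and of this machinery stood in adult kidneys labelled as deleted for Pax2 and Pax8.

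Among the 6 genes, Pax8 alone was called, and it rose. The 4 cofactor genes and Pax2 were not called, and the 95% confidence intervals of the cofactors ran from 0.874-fold to 1.41-fold. A gene was called when its adjusted p in limma (Benjamini-Hochberg over 22180 genes, in a model with genotype and sex) was below 0.05. Over all genes 7.2% were called, 4.12% as higher and 3.08% as lower on the arrays labelled knockout. For the 6 genes the count was 1 of 6, which is too few genes to set against that share. The groups did not overlap for 2 of the 6 genes, against 22.5% of all genes.

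Neither targeted gene was lower on the arrays labelled knockout. The removed exons are not named in the labels, and each Pax gene has a single cluster that summarises probes along its transcript. A probe that lies outside the deleted exons reads the message whether or not the deletion took place, so the values below are no check of the labels, and the groups are called by their labels throughout.

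Pax8 stood at 10.11, 10.59 and 10.39 log2 on the arrays labelled knockout 1, 3 and 5, and at 9.09, 9.0 and 8.89 on controls 2, 4 and 6. Every knockout-labelled array lay above every control, with a gap of 1.01 between the lowest of the former and the highest of the latter. The difference was 1.36 ± 0.12 (SE), or 2.58-fold with a 95% interval from 2.12-fold to 3.14-fold, and limma's adjusted p was 0.0037. By p it was number 71 of 22180 genes. Of the 913 genes called as higher, 82 rose further. Permuting the group labels (exact, two-sided) gave p = 0.1, and no smaller value is possible with 3 arrays against 3. The 3 controls were close together (SD 0.0998), while the knockout-labelled arrays spread more widely (SD 0.241), with the male lowest.

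The window before the start of Pax8 is shown because Pax8 is the gene of this set whose message differed. Its single RefSeq start site (assembly GRCm38.p6) has 250 bases before it at chr2:24475600-24475849, minus strand, printed 5′ to 3′. Capitals mark a GC box (GGGCGG, here on the opposite strand as CCGCCC) at position -179 from the start and a CCAAT box at -57.
Pax8 upstream window: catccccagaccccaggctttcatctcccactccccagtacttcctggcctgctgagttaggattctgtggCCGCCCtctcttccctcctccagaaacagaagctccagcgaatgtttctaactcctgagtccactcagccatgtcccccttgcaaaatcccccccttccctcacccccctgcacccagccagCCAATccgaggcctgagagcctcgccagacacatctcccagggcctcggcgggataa
Searched on both strands over 32851 windows of 250 bases, GGGCGG was found in 32.7% and CCAAT in 33.8%, so neither match is rare. The core GTCACGC of the sequence bound by the paired domain of Pax2, Pax5 and Pax8, present in 1.78% of the windows, and TATAAA, present in 12.4%, were not in these letters, nor in the windows of the other 5 genes. Pax8 held 6 CpG dinucleotides in its window, equal to the median of 6 over all windows. The windows of Paxip1, Kmt2c and Kmt2d held 22, 48 and 26, and those at the 2 RefSeq starts of Tle4 held 24 and 35. Pax2 has 3 RefSeq starts, whose windows held 5, 20 and 25 CpG dinucleotides. The array cluster does not separate these starts.

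Pax2 stood at 6.11, 6.49 and 6.16 log2 on knockout-labelled arrays 1, 3 and 5, and at 6.09, 5.77 and 6.08 on controls 2, 4 and 6. The groups did not overlap, but the gap was 0.02, and 5 of the 6 arrays lay between 5.77 and 6.16 with knockout 3 above them. Group means were 6.25 ± 0.21 and 5.98 ± 0.18 (SD, n = 3 arrays per group). The difference of 0.27 ± 0.10 (SE) had a 95% interval from 0.02 to 0.52 before adjustment and did not pass in limma (adjusted p = 0.19). Its exact two-sided permutation p was also 0.1. The male was the lowest of its group in both groups.

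**Figure D1:**
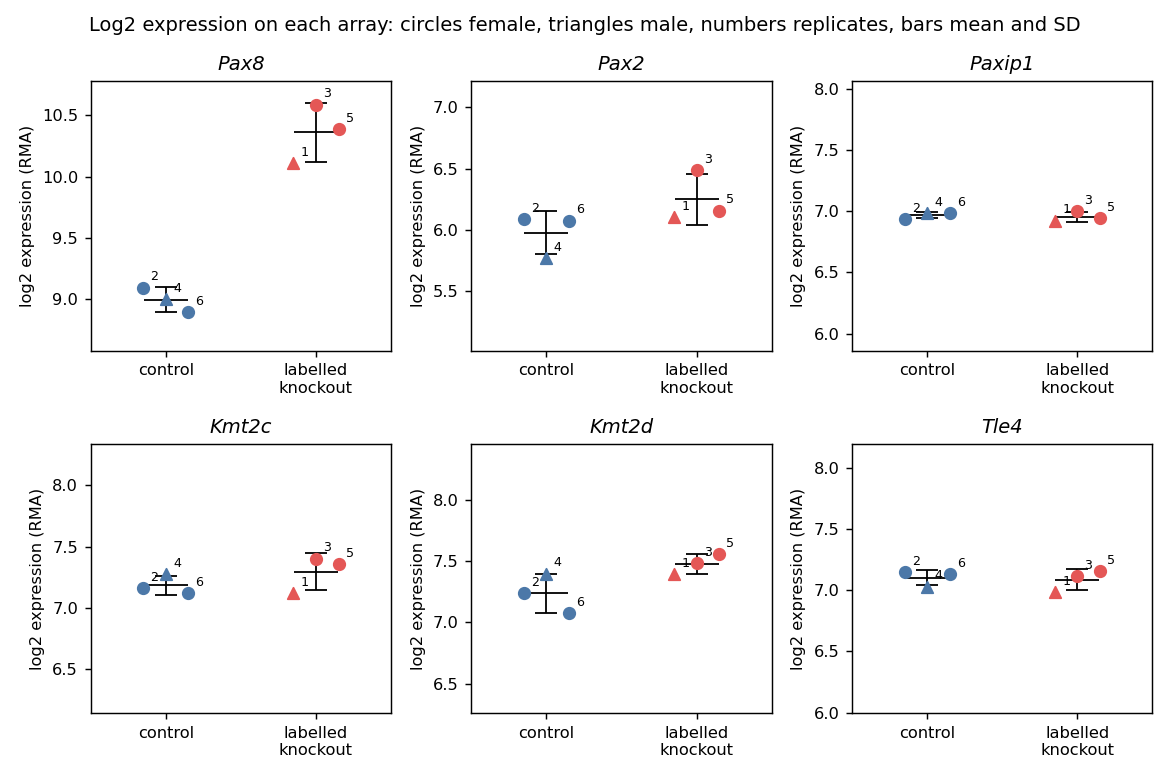
Log2 expression of the 6 genes on each array, with controls in blue and arrays labelled knockout in red, circles for females, triangles for males, replicate numbers beside the points and bars for the mean and SD (n = 3). All panels have the same span on the log2 axis. The 3 knockout-labelled points of Pax8 lie above its controls with a gap of 1.01, the Pax2 groups are parted by 0.02, and the groups of the other 4 genes overlap.

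Pax8 and the other 5 genes were also set against each other within arrays. The log2 ratio of Pax8 to Pax2 was 1.09 higher on the knockout-labelled arrays, and the ratio to Kmt2d was 1.12 higher. To Kmt2c it was 1.26 higher, to Paxip1 1.38 and to Tle4 1.38. In each of the 5 pairs all 3 knockout-labelled arrays exceeded all 3 controls, which the Pax8 gap of 1.01 fixes, since none of the other 5 genes ranged over more than 0.717 log2 units. The exact two-sided permutation p was 0.1 for each pair, and 0.1 after adjustment over the 5 pairs, which 3 against 3 arrays cannot go below, so no pair could pass the threshold of 0.05.

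Paxip1 encodes PTIP, the adaptor with tandem BRCT domains. It read 6.92, 7.0 and 6.94 log2 on knockout-labelled arrays 1, 3 and 5 and 6.94, 6.99 and 6.98 on controls 2, 4 and 6. All 6 arrays lay within 0.0786 log2 units, the narrowest spread of the 6 genes, and the groups overlapped. The difference was -0.013 ± 0.076 (SE), with a 95% interval from 0.874-fold to 1.12-fold (limma adjusted p = 0.95). A second Paxip1 cluster had means of 3.91 ± 0.09 and 4.13 ± 0.21 (SD, n = 3 arrays per group). Its difference of -0.22 ± 0.14 (SE) was not called either in a fit of all 41345 rows (limma adjusted p = 0.54).

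The methyltransferase genes Kmt2c and Kmt2d encode the catalytic subunits of the 2 PTIP-containing complexes. Kmt2c read 7.12, 7.40 and 7.36 on knockout-labelled arrays 1, 3 and 5 and 7.16, 7.27 and 7.12 on controls 2, 4 and 6. The knockout-labelled male lay among the controls and the females above them, and the difference of 0.11 ± 0.10 (SE) was not called (limma adjusted p = 0.61). Kmt2d read 7.39, 7.48 and 7.56 against 7.24, 7.40 and 7.08 in the same order. Its groups met between knockout 1 and control 4, which were 0.005 apart. The difference of 0.24 ± 0.11 (SE) was not called (limma adjusted p = 0.25), with an interval from 0.991-fold to 1.41-fold.

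Tle4, the Groucho corepressor gene, read 6.99, 7.12 and 7.16 on knockout-labelled arrays 1, 3 and 5 and 7.15, 7.03 and 7.13 on controls 2, 4 and 6. In both groups the male was lowest, and the groups overlapped. The difference was -0.017 ± 0.074 (SE), with an interval from 0.875-fold to 1.12-fold (limma adjusted p = 0.93). The arrays measured RNA, not the proteins or histone marks.

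**Figure D2:**
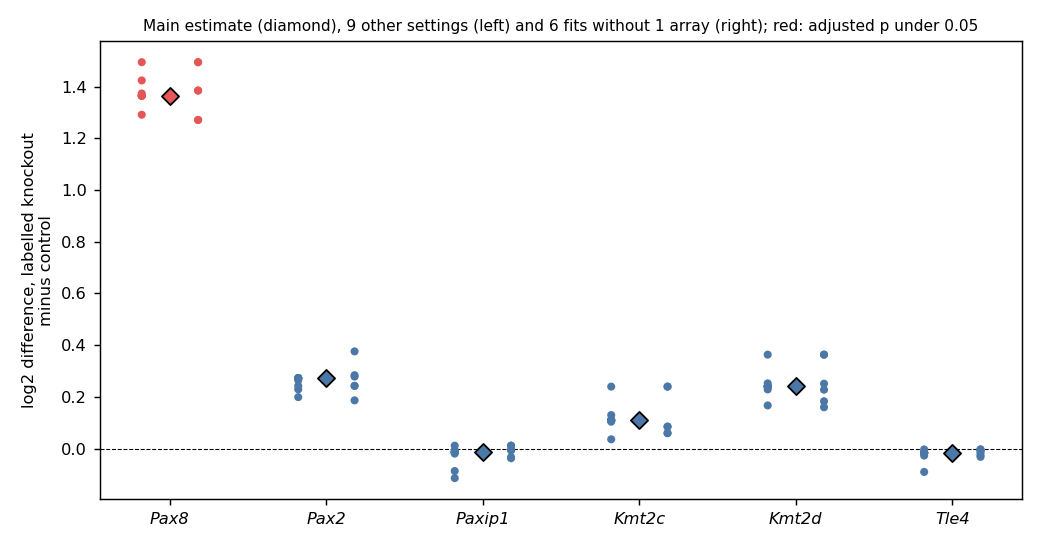
The log2 difference (knockout-labelled minus control) of each gene in the reported fit (diamond), under 9 other settings (left) and with 1 array left out (right), in red where the adjusted p was below 0.05. Pax8 stays between 1.27 and 1.49 and red throughout, and no other gene turns red.

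None of the 6 genes was called between the sexes (0 of 6 in limma, with 0 of 6 below an unadjusted p of 0.05), where 1.87% of all genes were called and 16.1% lay below that unadjusted p. Pax2 came nearest, at 0.26 lower in males (-0.26 ± 0.11, SE; limma adjusted p = 0.31). Pax8 was higher on the knockout-labelled arrays in both sexes, by 1.49 in the females (2 against 2 arrays) and by 1.11 in the males (1 against 1). Pax2 was 0.24 and 0.33 higher. Kmt2c was 0.24 higher in females and 0.15 lower in males (-0.15), and Kmt2d was 0.36 higher in females and 0.005 lower in males (-0.005). The genotype by sex term was called for 0 of the 6 genes (0 of 6 also at an unadjusted p under 0.05, where 6.99% of all genes were), and limma's adjusted p was 0.73 for Kmt2c, 0.78 for Kmt2d and 0.80 for Pax8. The male side of this term rests on 2 arrays, 1 per group, and over all genes the term called 0.00451%.

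Pax8 was the only gene of its family to be called. Of 9 Pax genes measured, 1 rose and none fell, where 4.12% of all genes were called higher and 3.08% lower. The median difference of the 7 genes other than Pax2 and Pax8 was -0.11. Those 7 had means between 2.66 and 3.83, below the median over all genes of 4.65, and the deposited values hold no detection call. Pax1, Pax3, Pax4, Pax6, Pax7 and Pax9, which pattern the skeleton, nervous system, muscle, eye and pancreas, differed by between -0.28 and 0.07. Pax5, the B cell member closest in kind to Pax2 and Pax8, differed by -0.20 ± 0.13 (SE; limma adjusted p = 0.43).

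All 10 listed genes of the complex that PTIP joins were measured. Of these, 0 were called in limma, where 7.2% of all genes were. Below an unadjusted p of 0.05 lay 1 of them, where 22.0% of all genes did. The median difference was 0.07, where all genes had -0.0062. Ncoa6, a nuclear receptor coactivator in the complex, came nearest at 0.25 ± 0.08 (SE; limma adjusted p = 0.14), and its groups did not overlap. The core subunits shared by all methyltransferases of this family, Ash2l, Rbbp5, Wdr5 and Dpy30, differed by 0.09, -0.05, -0.02 and 0.0032. Pagr1a, a partner of PTIP, differed by 0.05 at a low mean of 3.38. Kdm6a, a histone demethylase subunit that removes a repressive mark, differed by 0.11 between the groups and was lower in males. It read 7.84 and 7.79 log2 on the males knockout 1 and control 4 and between 8.31 and 8.51 on the 4 females. The sex difference of -0.59 was called (limma adjusted p = 0.024). The gene is X-linked and is known to escape X inactivation.

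**Figure D3:**
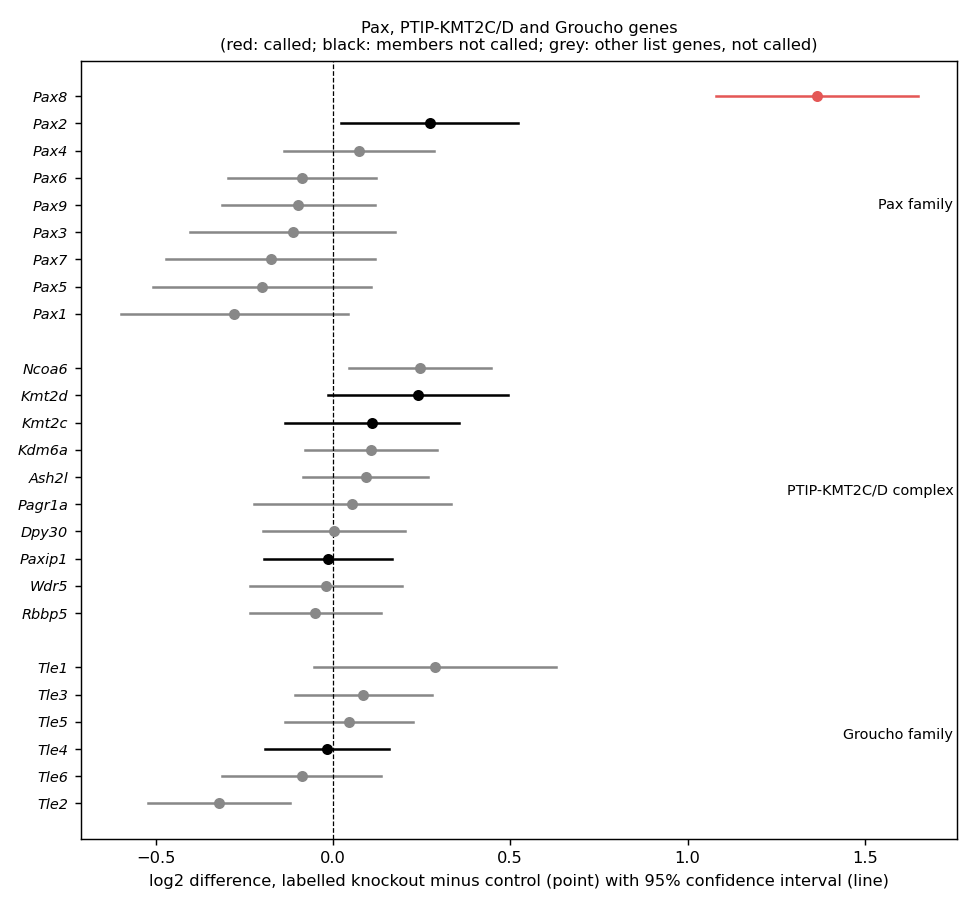
Log2 difference, knockout-labelled arrays minus controls (points), with 95% confidence intervals (lines) for the Pax family, the PTIP complex and the Groucho family. Pax8, in red at 1.36, is the 1 called gene of the 3 groups; the 10 genes of the PTIP complex lie between -0.05 and 0.25.

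Groucho genes gave 0 calls among 6, with 1 below an unadjusted p of 0.05, where 7.2% and 22.0% of all genes were. So few genes cannot be set against those shares. Tle2 was lower, at 5.25 ± 0.15 against 5.57 ± 0.11 (SD, n = 3 arrays per group), with groups that did not overlap, but the difference of -0.32 ± 0.08 (SE) did not pass (limma adjusted p = 0.074). Tle1 differed by 0.29, Tle3 by 0.09, Tle5 by 0.05 and Tle6 by -0.09. The family median was 0.01.

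Beyond the 6 genes, 11 lists of related genes held 95 other measured genes, of which 5 were called (5.26%, against 7.2% of all genes). Their median difference was 0.04. These 5 were 2 rises, Ezh2 and Trp53bp1, and 3 falls, Bod1, Cdh16 and Kdm1b. The count was 0 without control 2, control 6 or knockout 5, and 1 without knockout 3. Calls over all 22180 genes also dropped in those fits, from 1596 to 344, 356, 529 and 613 in that order. Without sex in the model the list count was 3 (471 over all genes), and with a trended robust prior it was 9 (2162 over all genes).

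The corepressor list holds Polycomb subunits, histone deacetylases and the arginine methyltransferase Prmt5. It had 1 rise in 13, where 4.12% of all genes were called higher, and a median of 0.04. Below an unadjusted p of 0.05 in limma lay 3 of the 13, where 22.0% of all genes did. Ezh2, the catalytic Polycomb subunit, read 6.07, 6.42 and 6.62 on knockout-labelled arrays 1, 3 and 5 and 5.73, 5.74 and 5.82 on controls 2, 4 and 6. The difference was 0.61 ± 0.11 (SE; limma adjusted p = 0.029). With single arrays left out it lay between 0.51 and 0.74, and the call was lost in 4 of 6 fits (limma adjusted p up to 0.11). Ezh2 is also a gene of dividing cells, and all 4 measured markers of cycling cells were called higher on the same arrays. The mean of those markers was between 5.17 and 6.31 log2 on the knockout-labelled arrays and between 3.82 and 4.01 on the controls. Their part in the Ezh2 result was not tested. Ezh1, Eed and Suz12 differed by -0.10, 0.25 and -0.04, and Prmt5 by 0.02.

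Of 12 further genes of the methyltransferase family none rose and 1 fell, where 4.12% of all genes were called higher and 3.08% lower. Their median was 0.16. Below an unadjusted p of 0.05 in limma lay 4 of the 12, where 22.0% of all genes did. The faller was Bod1, a phosphatase-regulating protein listed for its link to the SETD1 complexes, which read 7.74, 7.78 and 7.79 on knockout-labelled arrays 1, 3 and 5 and 8.48, 8.18 and 8.46 on controls 2, 4 and 6. Its difference was -0.60 ± 0.09 (SE; limma adjusted p = 0.014). With single arrays left out it lay between -0.68 and -0.57, and the call was lost in 4 of 6 fits (limma adjusted p up to 0.065). Of 6 lysine 4 demethylases 1 fell, where 3.08% of all genes were called lower, and so few genes cannot be set against that share. It was Kdm1b, at 7.47 ± 0.03 against 7.83 ± 0.05 (SD, n = 3 arrays per group; limma adjusted p = 0.036). Kdm5a and Kdm5b were 0.30 and 0.25 higher without overlap of the groups, but did not pass (limma adjusted p = 0.063 and 0.16). In this list 3 of 6 lay below an unadjusted p of 0.05, and its median was 0.07. The Kdm1b difference lay between -0.386 and -0.345 with single arrays left out, but its call was lost in each of the 6 fits (limma adjusted p from 0.095 to 0.12). Kdm5d and Uty, both Y-linked, were called between the sexes only.

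PTIP also acts in the DNA damage response, and of 6 measured partners there 1 rose, where 4.12% of all genes were called higher. Trp53bp1, whose protein 53BP1 recruits PTIP to breaks, read 6.45, 6.60 and 6.48 on knockout-labelled arrays 1, 3 and 5 and 6.08, 5.99 and 6.08 on controls 2, 4 and 6. The difference was 0.46 ± 0.08 (SE; limma adjusted p = 0.021) and equal in both sexes (0.46 and 0.46). With single arrays left out it lay between 0.43 and 0.49, but the call was lost in each of the 6 fits (limma adjusted p from 0.061 to 0.084). Calls over all genes also dropped in those fits, from 1596 to between 344 and 1249. Of 10 enhancer coactivators and 5 kinases or phosphatases that act on Pax2, none was called, where 7.2% of all genes were. Below an unadjusted p of 0.05 lay 1 and 0 of them, where 22.0% of all genes did. None of 14 renal transcription factors that act with Pax proteins was called in limma, with 5 below an unadjusted p of 0.05, again against 22.0% of all genes.

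**Figure D4:**
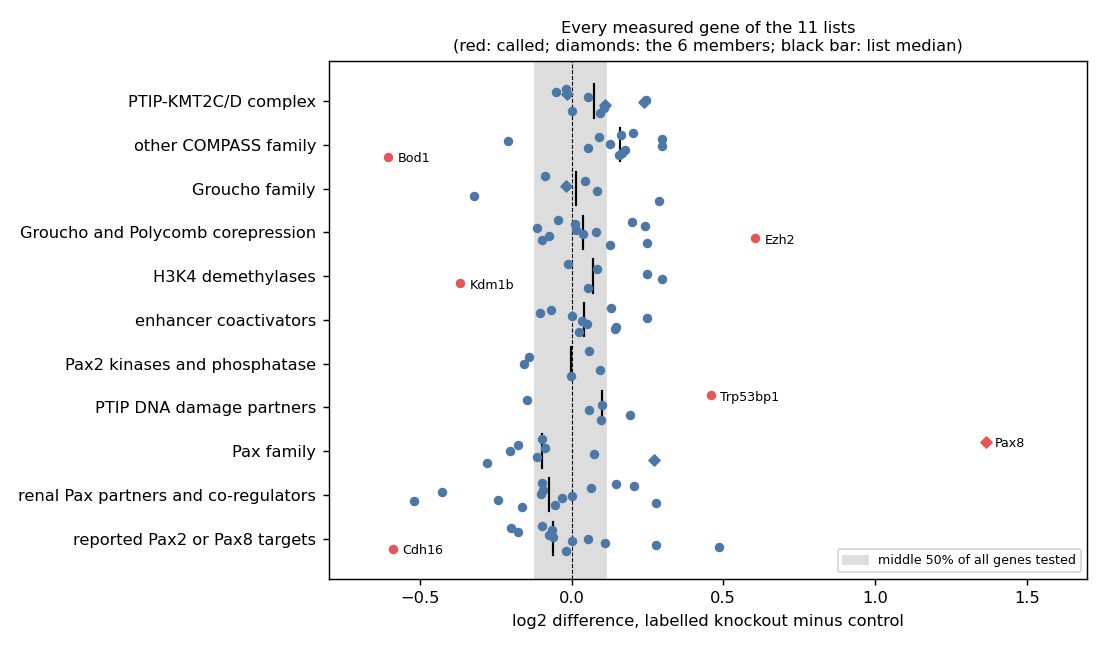
Log2 difference of every measured gene of the 11 lists (points; diamonds are the 6 genes described first, red marks called genes, black bars are list medians) over the middle 50% of all genes (grey, -0.12 to 0.11). List medians lie between -0.10 and 0.16, and Pax8 stands alone on the right.

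Reported targets of Pax2 or Pax8 were called in 1 of 13 cases, as lower, where 7.2% of all genes were called and 3.08% as lower. Their median difference was -0.06. Below an unadjusted p of 0.05 in limma lay 3 of the 13, where 22.0% of all genes did. Cdh16, the kidney cadherin whose promoter is bound by Pax8, fell from 10.40 ± 0.11 to 9.81 ± 0.03 (SD, n = 3 arrays per group). It read 9.80, 9.85 and 9.79 on knockout-labelled arrays 1, 3 and 5 and 10.44, 10.27 and 10.48 on controls 2, 4 and 6. The Cdh16 difference was -0.59 ± 0.08 (SE; limma adjusted p = 0.012). With single arrays left out it lay between -0.641 and -0.555, and the call was lost in 3 of 6 fits (limma adjusted p up to 0.059). Pax8 and Cdh16 thus moved in opposite directions on the same arrays. The developmental targets Gata3, Wnt4 and Ret differed by 0.28, -0.20 and -0.06 and were not called. E2f1, a transcription factor of the cell cycle, read 4.28 ± 0.16 against 3.79 ± 0.18 (SD, n = 3 arrays per group). Its groups did not overlap, but the difference of 0.49 ± 0.13 (SE) did not pass (limma adjusted p = 0.077).

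Because bulk RNA was measured, fewer cells of a type and less RNA per cell cannot be told apart, and this holds for a rise as well. Of 12 tubule epithelium markers, with means of at least 7.36, 2 rose (Krt8 and Krt18) and 3 fell (Aqp2, Cdh16 and Slc34a1). Of these 12, 10 lay below an unadjusted p of 0.05 in limma, where 22.0% of all genes did and 7.2% were called. Their differences ran from -0.88 to 1.01, so the list mean averages moves in both directions. That mean was between 9.78 and 10.0 log2 on the knockout-labelled arrays and between 9.70 and 9.96 on the controls. Of 8 macrophage markers 6 rose, with a list mean of 6.59 to 7.36 against 5.71 to 5.79, and of 6 fibroblast markers 4 rose, with a mean of 7.82 to 8.21 against 6.86 to 7.34. Of 6 B cell markers 2 rose, Jchain and Ighm, whose groups overlapped and which were also called as higher in males. Of 4 T cell markers 1 rose, Cd4. Podocyte, endothelial, urothelial, adrenal and fat markers gave no call, and thyroid markers, listed since Pax8 is also a thyroid factor, had means between 3.78 and 4.75 with none called. The part of these cell types in the Pax8 result was not tested. Brown fat Ucp1 read 7.77 and 7.53 on controls 2 and 6 and 3.53 to 5.12 on the other arrays. The Pax8 difference was 1.38 without control 2 and 1.27 without control 6. Each of those fits still held the other control with high Ucp1, so the part of fat in the Pax8 result was not tested.

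Genes next to the targeted loci were read for the 3 nearest tested genes on each side, in the order of assembly GRCm38.p6. Beside Pax8 none of Il1f10, Il1rn, Psd4, Cacna1b, Ehmt1 and Arrdc1 was called, with differences between -0.24 and 0.29. Beside Pax2, Sec31b, Hif1an, 1700039E22Rik, Slf2 and 4930414N06Rik were not called. Ndufb8, a respiratory chain subunit, fell by 0.39 (limma adjusted p = 0.035), where 3.08% of all genes were called lower. Its difference lay between -0.43 and -0.35 with single arrays left out, but the call was lost in each of those 6 fits.

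The genes most like Pax8 over the 6 arrays were found by the root mean square distance between log2 profiles, each centred on its own mean. The nearest were Rcn1, a calcium-binding protein of the endoplasmic reticulum (0.118), Scara3, a scavenger receptor family member (0.120), Clu, the secreted chaperone clusterin (0.126), Chrnb1, an acetylcholine receptor subunit (0.127), and Fos, an immediate early transcription factor (0.131). These 5 were chosen for their likeness to Pax8, so their own differences of 1.30 to 1.46 are a description. No gene came within 0.1 of Pax8. Around Pax2, whose profile has a smaller range, 216 genes did, and the nearest were Tacc1 (0.014), Rcc2 (0.023), Dusp10 (0.040), Septin10 (0.042) and Pappa2 (0.043).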

How the data were processed

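The values are log2 expression per transcript cluster, normalized by the authors and used as deposited. The submitters' processing notes name RMA, limma and R 3.4.0 but no role for any of them; filters and genome build: not given in the sources used here. Array medians lay between 3.81 and 3.87. Of 41345 clusters, 23521 have 1 gene symbol; the highest-mean cluster was taken where a gene had several, leaving 22180 genes. Gene identifiers of 23328 of those clusters matched a RefSeq table (GRCm38.p6).

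Limma 3.58.1 in R 4.3.3 fitted genotype and sex with default empirical Bayes moderation (3 residual, 6.72 total degrees of freedom), with Benjamini-Hochberg adjustment over all genes and a threshold of 0.05. The same fit gave 95% intervals. The fit was also run on simulated data with independent noise on each array and no sex effect. Those settings differ from these data, so the run does not give the error rate here. The members and lists were chosen with earlier results of these data known. Of the 109 different list genes, 101 were measured. Genes were named by a rule: all 6 members, all genes of the PTIP, Groucho and Pax lists, up to 4 called genes of each other list, 3 neighbours a side, and 5 nearest profiles; other genes were named after their values were seen. Alternatives were no sex term, females only, each array left out, array weights, a robust prior with a trend, scaling by quantiles or by medians, dim genes (mean below 2.98) removed, cluster averages and every row tested. The number of arrays limits the precision.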

Additional observations from a re-analysis of the deposited data

How the results depend on the processing

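Pax8 kept its direction and its call in all 15 alternative fits (1.27 to 1.49, adjusted p 0.00053 to 0.029), and the other 5 genes were called in none of them. The differences then lay between 0.19 and 0.38 for Pax2, 0.036 and 0.24 for Kmt2c (0.11 as reported), 0.16 and 0.36 for Kmt2d and -0.090 and -0.0033 for Tle4. Leaving out the male of either group gives the females-only estimates and adjusted p, since the other male is then absorbed by the sex term. The counts of fits given here and above include these repeats. Paxip1 changed sign in the females only, at 0.011 (adjusted p = 0.97), and lay between -0.037 and 0.011 with single arrays left out. Its lowest value, -0.11, came with cluster averages, which bring in its second cluster, and median centring gave -0.087 (-0.013 as reported). Its sex difference turned to 0.042 after median centring and lay between -0.049 and 0.025 with single arrays left out. The sex difference of Pax8 then lay between -0.38 and 0.0087, of Kmt2c between -0.26 and 0.13 and of Kmt2d between -0.13 and 0.24, and the genotype by sex term of Pax2 between -0.076 and 0.26. Over all genes, 913 were called higher and 683 lower; without sex in the model the counts were 304 and 167, and with every row tested 199 and 103. Single arrays left out gave 218 to 675 higher and 126 to 574 lower. Median centring gave 1194 lower and 713 higher, so that 37.4% of calls were higher against 57.2%, and moved the median difference from -0.0062 to -0.08. The count of called list genes, 5, became 3 without sex, 9 with the trended robust prior, 0 with every row tested and 0 to 5 with single arrays left out. The cause was not tested. No paired analysis was possible because the labels name no pairs of samples. With 3 arrays per group and no detection calls in the deposited values, low means cannot be told from none.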
